A study of Mus musculus with 2 samples.

Results

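Lhx2, Sox9, Nfatc1, Foxc1, Tbx1, Lgr5, Lgr6, Lrig1, Gata6 and Foxe1 encode 7 transcription factors and 3 membrane proteins that mark or maintain the stem cells and the upper part of the hair follicle. They were taken by symbol, and all 10 were found among the 23183 genes of a gene expression table of neonatal mouse epidermis. The table holds poly(A)-selected RNA-seq of 2 libraries. The L19M library came from mice carrying the L19M allele of Foxn1 on both chromosomes (Foxn1 L19M/L19M), and the WT library from wild-type mice, both C57BL/6. FOXN1 is a forkhead factor made by differentiating keratinocytes and by the epithelium of the thymus, and the stated aim was to compare keratinocyte function between the genotypes. Neither the labels nor the files say how many pups went into each library, or their age in days or sex. With 1 library per genotype no test between genotypes was possible, and every difference below compares these 2 libraries.

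The hair follicle is renewed from several pools of epithelial cells that differ in position. Cells of the bulge and hair germ, in the lower permanent follicle, feed the growing hair, while cells of the isthmus, junctional zone and infundibulum, above them, maintain the upper follicle, the sebaceous gland and its duct. In newborn mice the first follicles are still being built, and several of these genes act already in the buds and in the outer root sheath from which the later stem cells come. Lhx2, Sox9, Nfatc1, Foxc1, Tbx1 and Lgr5 are treated here as genes of the lower follicle, and Lgr6, Lrig1, Gata6 and Foxe1 as genes of the upper follicle. The assignment is a simplification, since several of them are expressed in more than 1 region and also outside the follicle. No value here places a gene in a region, and the position of Foxe1 in the upper set is an assumption.

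Start-site sequences of 5 of the 10 genes (Lhx2, Foxc1, Tbx1, Lgr6 and Lrig1) were available from RefSeq (GRCm38.p6), as windows of 250 bases before to 50 after a transcription start. Shown are the windows of Foxc1 and Tbx1, the pair of these 5 genes furthest below WT in the L19M library, and of Lhx2, the most abundant of the 10 and close to equal between the libraries. For each, the start is the one at which the table's own row begins. Capitals mark the 5 letters GACGC, known as the core recognised by FOXN1, and GCGTC, the same letters read from the other strand. The windows lie at chr13:31806396-31806695 (plus strand) for Foxc1, chr16:18590622-18590921 (minus strand) for Tbx1 and chr2:38339031-38339330 (plus strand) for Lhx2, and each is written in the direction of its gene.
Foxc1: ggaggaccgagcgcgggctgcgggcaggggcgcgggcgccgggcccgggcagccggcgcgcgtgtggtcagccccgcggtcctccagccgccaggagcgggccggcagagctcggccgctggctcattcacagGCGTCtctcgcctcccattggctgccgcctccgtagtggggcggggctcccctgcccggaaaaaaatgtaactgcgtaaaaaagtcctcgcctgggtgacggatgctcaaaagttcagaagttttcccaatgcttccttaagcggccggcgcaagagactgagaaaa
Tbx1: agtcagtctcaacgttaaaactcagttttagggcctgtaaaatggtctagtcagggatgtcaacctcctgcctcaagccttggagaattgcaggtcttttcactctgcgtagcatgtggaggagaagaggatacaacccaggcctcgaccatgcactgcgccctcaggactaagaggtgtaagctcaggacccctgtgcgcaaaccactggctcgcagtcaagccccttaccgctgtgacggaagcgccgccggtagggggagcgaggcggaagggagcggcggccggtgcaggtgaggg
Lhx2: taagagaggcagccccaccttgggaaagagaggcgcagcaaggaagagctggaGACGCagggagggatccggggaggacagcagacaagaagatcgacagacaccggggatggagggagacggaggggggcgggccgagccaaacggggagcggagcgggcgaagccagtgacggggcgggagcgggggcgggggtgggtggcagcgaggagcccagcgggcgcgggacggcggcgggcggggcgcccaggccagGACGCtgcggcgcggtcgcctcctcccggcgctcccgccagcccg
The core was present 2 times in the Lhx2 window, 1 time in the Foxc1 window and not in that Tbx1 window. A further Tbx1 start, 1772 bases downstream, had 2, and a further Lhx2 start, 12027 bases downstream, had none. The Lrig1 window had 1 and the Lgr6 window had none, so 4 of the 7 windows of these genes held the core. Of all 32851 windows of this length, 27.2% held the core on at least 1 strand. GC content was 67.3% for Foxc1, 58.3% for Tbx1 and 74.7% for Lhx2, against a median of 52.7% over all windows. These matches describe the letters only, and no binding was measured.

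Values are FPKM, fragment numbers scaled by transcript length and by library size, so levels can be compared between genes. Depth was estimated from the steps of low FPKM values at 19206537 fragments in L19M and 14144087 in WT, which turns each FPKM into a fragment number and gives it a 95% counting interval. These intervals cover counting error only, not the spread between animals. Epidermal identity was plain in both libraries, with Krt14, a keratin of basal keratinocytes, at 3850 FPKM in L19M and 3408 FPKM in WT, and Krt10, a keratin of the layers above, at 8193 FPKM in L19M and 9337 FPKM in WT. Foxn1 RNA was at 5.44 FPKM in L19M and 3.74 FPKM in WT, a ratio of 1.45 (interval 1.20 to 1.77). Its level does not check the genotype.

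The follicle regulators did not differ as a block. Foxe1, Gata6, Tbx1 and Foxc1 were lower in the L19M library, at 0.302 to 0.569 times their WT level, and Lrig1 was lower by less, while Lhx2, Sox9, Nfatc1 and Lgr5 were within 1.2-fold of equality and Lgr6 was slightly higher. On the scale log2(FPKM + 1), on which a pseudocount of 1 shrinks differences at low level, none of the 10 was at least 2-fold lower (1.71% of 11841 measured genes were) and none at least 2-fold higher (0.532% were). A gene counts as measured when its mean over both libraries is at least 1 FPKM, which held for all 10. Foxe1 and Gata6 reached this floor only through WT, since they had 0.632 and 0.889 FPKM in L19M. At 1.5-fold on the same scale 4 of 10 were lower, Foxe1, Tbx1, Foxc1 and Gata6, beside 4.07% of measured genes, and none was higher, beside 1.99%. Their levels are low, and of the 7 members with a mean under 10 FPKM these 4 were lower at 1.5-fold, beside 4.87% of measured genes under that level. The members were chosen with earlier results of these data known, so these counts cannot be read as enrichment. With a pseudocount of 0.1 FPKM the 2-fold rule took in Foxe1, Gata6 and Tbx1 as lower, beside 2.51% of measured genes, and none as higher, beside 1.01%. The median log2 ratio of the 10 was -0.23, against a median of 0.0049 and quartiles of -0.17 and 0.16 for all measured genes. Of the 10, 8 were below 0 and 2 above, beside 5827 and 6014 of the 11841 measured genes.

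**Figure D1:**
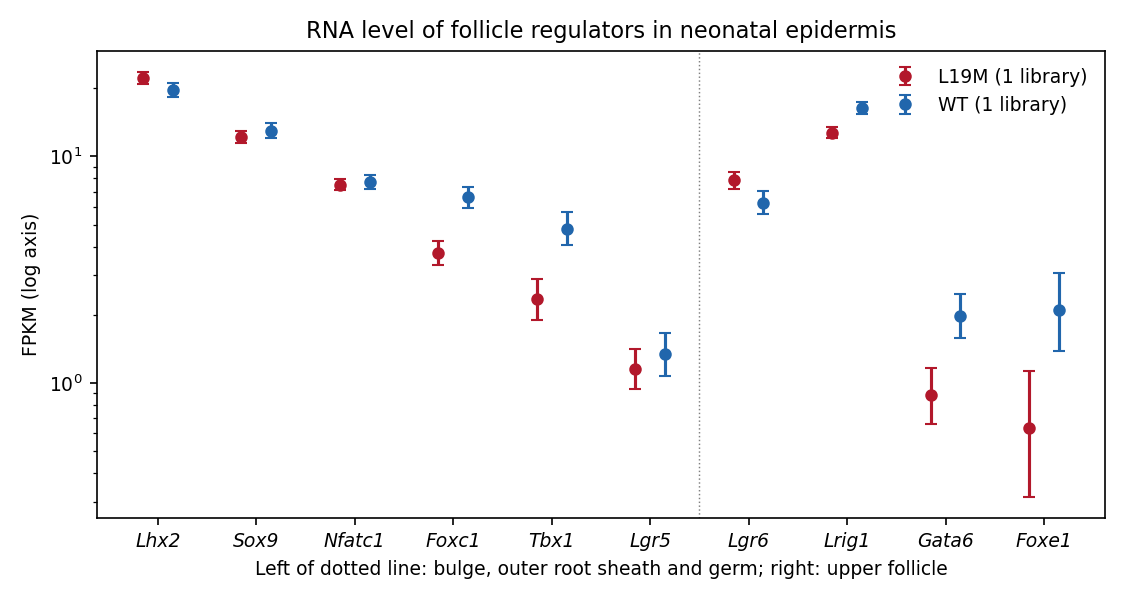
RNA level in FPKM (log axis) of each regulator in the L19M library (red, left) and the WT library (blue, right), with 95% counting intervals as bars and 1 library per genotype. The intervals of Foxc1, Tbx1, Gata6, Foxe1 and Lrig1 lie lower in L19M and do not overlap those of WT.

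Among the genes of the lower follicle, the factors best known for building and holding the bulge had near-equal RNA. Lhx2, a LIM-homeodomain factor that keeps follicle stem cells from differentiating, had 22.2 FPKM in L19M and 19.7 FPKM in WT, a ratio of 1.13 (interval 1.03 to 1.24). Sox9, an HMG-box factor needed for the outer root sheath and for the first bulge cells, had 12.2 FPKM in L19M and 13.0 FPKM in WT, a ratio of 0.938 (0.850 to 1.035). Nfatc1, a calcineurin-dependent factor that holds bulge cells in quiescence, had 7.51 FPKM in L19M and 7.71 FPKM in WT, a ratio of 0.974 (0.890 to 1.07). The intervals of Sox9 and Nfatc1 include 1, and the sign of the small Nfatc1 difference turned with the scaling of the libraries. Lgr5, a receptor for R-spondins that marks the lower bulge and hair germ, was the least abundant of this set, at 1.16 FPKM in L19M and 1.35 FPKM in WT. Its ratio of 0.857 (0.636 to 1.16) rests on an estimated 100 fragments in L19M and 86 in WT, so equality lies within its counting error.

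Foxc1 and Tbx1 had lower ratios than Lhx2, Sox9 and Nfatc1. Foxc1, a forkhead factor that keeps activated bulge cells able to return to quiescence, had 3.76 FPKM in L19M and 6.61 FPKM in WT, from an estimated 273 fragments in L19M and 354 in WT. The ratio was 0.569 (0.484 to 0.668) and the log2 ratio -0.68, and 3.18% of measured genes had a log2 ratio as low or lower. Tbx1, a T-box factor that supports self-renewal of follicle stem cells, had 2.35 FPKM in L19M and 4.81 FPKM in WT, from 94 fragments in L19M and 142 in WT. Its ratio was 0.488 (0.372 to 0.639) and its log2 ratio -0.80, with 2.36% of measured genes as low or lower. The interval of neither ratio overlaps those of Lhx2, Sox9 or Nfatc1, a difference beyond counting error. The wider interval of Lgr5 overlaps those of both Foxc1 and Tbx1. In bulk RNA, fewer cells of a type and less RNA per cell cannot be told apart.

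Among the genes of the upper follicle, Lgr6 was higher and the other 3 were lower in L19M. Lgr6, the R-spondin receptor of the isthmus, had 7.87 FPKM in L19M and 6.26 FPKM in WT, a ratio of 1.26 (1.09 to 1.45). Lrig1, a transmembrane protein that restrains ErbB receptor signalling and marks the junctional zone, had 12.7 FPKM in L19M and 16.3 FPKM in WT. With 1163 fragments in L19M and 1099 in WT its ratio of 0.780 (0.718 to 0.848) is among the more precise here, although 11.9% of measured genes had a log2 ratio as low or lower than its -0.33.

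Gata6 and Foxe1 were both low in level and lower in L19M. Gata6, a zinc-finger factor of the junctional zone and sebaceous duct, had 0.889 FPKM in L19M and 1.99 FPKM in WT, from 51 fragments in L19M and 84 in WT. Its ratio was 0.448 (0.310 to 0.642). Foxe1, a forkhead factor required for normal follicle growth, had 0.632 FPKM in L19M and 2.10 FPKM in WT. Its ratio of 0.302 (0.135 to 0.628), the lowest of the 10, rests on 11 fragments in L19M and 27 in WT and is the least precise. The interval overlaps those of Gata6, Tbx1 and Foxc1, so its place below them is not resolved. On the log2(FPKM + 1) scale the differences were -0.66 for Gata6 and -0.92 for Foxe1, and 3.38% and 1.92% of measured genes lay as low or lower.

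**Figure D2:**
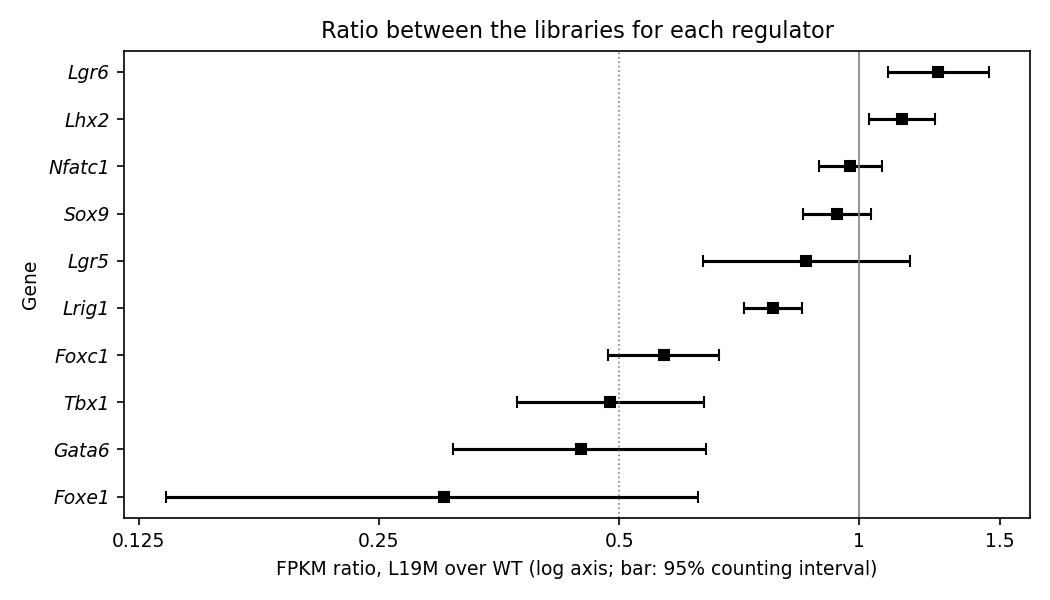
FPKM ratio of L19M over WT for each regulator on a log axis, ordered from highest to lowest, with 95% counting intervals as bars, a solid line at 1 and a dotted line at 0.5. The intervals of Foxc1, Tbx1, Gata6 and Foxe1 all end below 0.7, while those of Nfatc1, Sox9 and Lgr5 include 1.

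At this depth the counting interval leaves out 1 for many genes. For 5 of the 10 genes the interval of the ratio lay wholly below 1 and for 2 it lay wholly above 1, beside 24.4% and 23.1% of 11802 measured genes of at least 300 bases. In the scatter of all measured genes Lhx2, Sox9, Nfatc1, Lgr5, Lgr6 and Lrig1 lie between -0.33 and 0.29, and Foxe1, Tbx1, Foxc1 and Gata6 between -0.92 and -0.66.

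**Figure D3:**
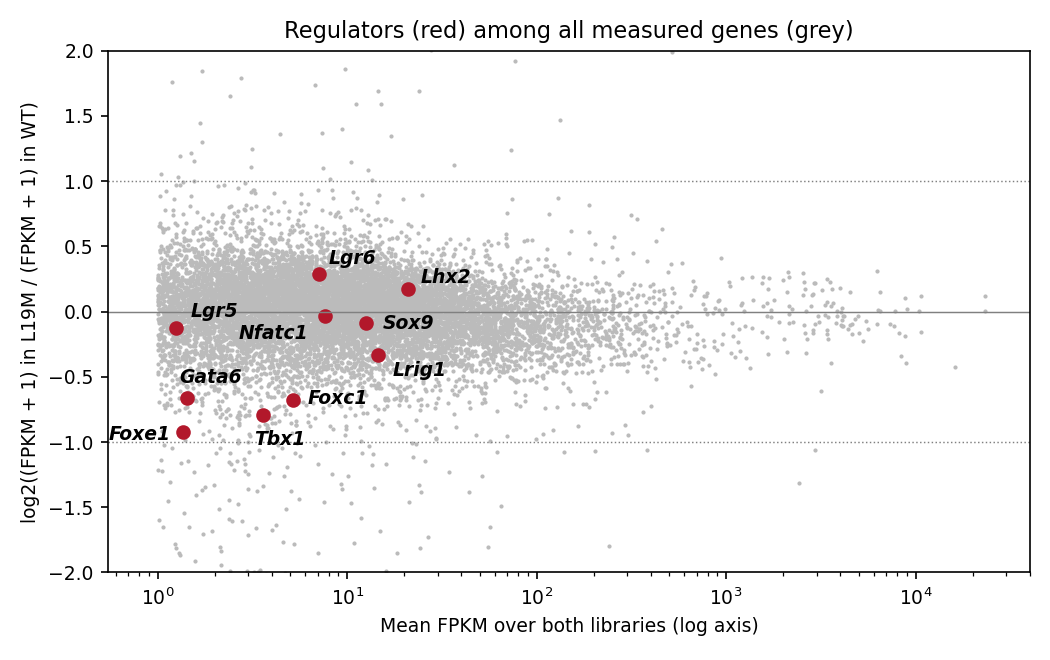
Log2 ratio of L19M over WT, on the log2(FPKM + 1) scale, against mean FPKM (log axis) for 11841 measured genes (grey) and the 10 regulators (red); dotted lines mark 2-fold, and 114 grey points beyond 2 in either direction are outside the axis. Foxe1 lies closest to the lower dotted line, at -0.92, and no regulator passes it.

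The order of levels was the same in both libraries for the top 3 and differed below them. In both, Lhx2 was the most abundant, above 81.0% of the genes detected in L19M and 78.5% of those detected in WT, followed by Lrig1 and Sox9. The intervals of Lrig1 and Sox9 overlap in L19M and do not in WT. In L19M Lgr6 and Nfatc1 came next with overlapping intervals, followed by Foxc1 and Tbx1, each apart from its neighbours. In WT Nfatc1, Foxc1, Lgr6 and Tbx1 followed in that order, with the interval of each overlapping the next. Lgr5, Gata6 and Foxe1 formed the bottom of both orders with overlapping neighbours. Foxe1 stood last in L19M, above 24.8% of detected genes, and in place 8 in WT, above 37.5%.

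Positions and transcript models bear on how the values were counted (mm10, counted from 1). Foxc1 (Entrez 17300, chr13:31806646-31810635, plus strand, 3990 bases) and Foxe1 (Entrez 110805, chr4:46344194-46345309, plus strand) have 1 exon each in mouse GENCODE M21. The table's Foxe1 row covers 1116 bases, whereas the RefSeq gene spans 2131 bases from 46343644 to 46345774, so its FPKM is scaled to that shorter stretch. Tbx1 (Entrez 21380, chr16:18581704-18590671, minus strand, 2288 bases) has 7 exons and Gata6 (Entrez 14465, chr18:11052510-11085635, plus strand, 3194 bases) also 7. The other loci are Lhx2 (Entrez 16870, chr2:38339281-38369737, plus), Sox9 (Entrez 20682, chr11:112782210-112787757, plus), Nfatc1 (Entrez 18018, chr18:80606205-80713071, minus), Lgr5 (Entrez 14160, chr10:115450314-115587780, minus), Lgr6 (Entrez 329252, chr1:134986353-135105276, minus) and Lrig1 (Entrez 16206, chr6:94604529-94700145, minus). Rows of other genes overlap Lgr5, Lrig1 and Gata6 on the opposite strand. The rows over Lgr5 and Gata6 are listed at 0 in both libraries. Slc25a26, which overlaps the 3′ end of Lrig1, had 3.35 FPKM in L19M and 2.89 FPKM in WT.

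No measured signalling partner of the membrane proteins or of Nfatc1 was 2-fold apart, and several were slightly higher in L19M. Of all measured genes only 1.71% were 2-fold lower and 0.532% higher, so counts of 0 in such short lists say little about the partners. R-spondins are secreted ligands that bind LGR receptors and thereby spare Wnt receptors from removal by the ubiquitin ligases RNF43 and ZNRF3. Of 7 genes of that system 5 were measured and none was 2-fold apart, with a median log2 ratio of 0.10. The third LGR receptor, Lgr4, had 9.15 FPKM in L19M and 7.38 FPKM in WT, a ratio of 1.24 (1.11 to 1.39), close to that of Lgr6. The ligands Rspo1 (1.63 FPKM in L19M, 1.65 FPKM in WT) and Rspo3 (2.57 FPKM in L19M, 2.45 FPKM in WT) and the ligase gene Rnf43 (3.65 FPKM in L19M, 3.34 FPKM in WT) had intervals that include 1. Znrf3, at 5.26 FPKM in L19M and 4.06 FPKM in WT, had a ratio of 1.29 (1.14 to 1.48).

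The calcineurin and NFAT list had 10 of 12 genes measured, with a median of 0.10. None was 2-fold apart, beside 1.71% of measured genes lower and 0.532% higher. Ppp3ca, a catalytic subunit of the phosphatase calcineurin that activates NFAT factors, had 41.6 FPKM in L19M and 36.7 FPKM in WT. The other factors furthest from 0 were Nfatc4 (log2 ratio 0.40), Nfat5 (0.27) and Nfatc3 (0.22), all above 0, beside -0.03 for Nfatc1. Of the other LRIG proteins and the ErbB receptors 5 of 6 were measured, none 2-fold apart, with a median of -0.06. Lrig3 had 6.77 FPKM in L19M and 7.88 FPKM in WT, a ratio of 0.860 (0.754 to 0.980), and Egfr, the receptor restrained by LRIG1, had 5.33 FPKM in L19M and 6.50 FPKM in WT, a ratio of 0.819 (0.727 to 0.923). Log2 ratios were -0.02 for Lrig2, -0.06 for Erbb2 and 0.13 for Erbb3. Ldb1, the cofactor that bridges LIM-homeodomain proteins such as LHX2, had 70.7 FPKM in L19M and 55.4 FPKM in WT, a ratio of 1.28 (1.21 to 1.35). The LIM-only genes Lmo1 (-0.02), Lmo4 (-0.02) and Lmo2 (0.27) were also under 2-fold on the log2 scale.

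Among relatives of the lower transcription factors, Gata3 and Tbx15 lay apart from Gata6 and Tbx1 beyond counting error, while 1 forkhead gene, Foxq1, did not lie apart from Foxc1 and Foxe1. Gata3, a factor of the inner root sheath and epidermis and the 1 other GATA gene measured of 5 listed, had 37.3 FPKM in L19M and 34.8 FPKM in WT, a ratio of 1.07 (1.003 to 1.15) whose interval does not overlap that of Gata6. Tbx15, the 1 other T-box gene measured of 4 listed, had 3.75 FPKM in L19M and 3.26 FPKM in WT, a ratio of 1.15 (0.937 to 1.42) whose interval does not overlap that of Tbx1. The other listed T-box genes lay under the floor and were looked at after their values were seen. Tbx3 had 1.02 FPKM in L19M and 0.345 FPKM in WT, from 91 fragments in L19M and 23 in WT. Its ratio was 2.97 (1.83 to 4.83), while the intervals of Tbx2 (0.501 to 1.38) and Tbx18 (0.936 to 2.37) include 1. Of 14 other forkhead genes 11 were measured, with a median of 0.20. None was at 1.5-fold, beside 4.07% of measured genes lower and 1.99% higher. The furthest from 0 beside Foxn1 (0.44) were Foxp1 (0.39), a factor of follicle stem cell quiescence, Foxi3 (0.32), a factor of the hair germ, and Foxq1 (-0.32), a factor of hair shaft differentiation. Foxq1 had 1.64 FPKM in L19M and 2.31 FPKM in WT, a ratio of 0.712 (0.519 to 0.976) whose interval overlaps those of Foxc1 and Foxe1. Of 8 other SOX genes 6 were measured, with a median of 0.31. None was at 1.5-fold on the log2(FPKM + 1) scale, beside the same 4.07% and 1.99%. Without a pseudocount the ratio of Sox15 was 1.54 (1.16 to 2.07). On the log2 scale Sox15 (0.54), Sox4 (0.42), Sox18 (0.37) and Sox21 (0.26) lay above 0, and Sox13 (-0.02) and Sox7 (-0.10), like Sox9 (-0.09), just below.

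Genes listed as bulge markers mostly lay slightly above 0, and those listed for the upper follicle mostly below. Both lists were chosen with earlier results of these data known. Whether each gene marks only that region in newborn skin was not tested, so the values do not measure numbers of bulge or upper follicle cells. Of 19 markers of the bulge and outer root sheath 15 were measured. None was 2-fold apart, beside 1.71% of measured genes lower and 0.532% higher. Of the 15, 11 were above 0 and 4 below, beside 6014 and 5827 of all 11841 measured genes. The median log2 ratio was 0.16, level with the upper quartile of all measured genes (0.16). The summed level of the bulge list was 1425 FPKM in L19M and 1440 FPKM in WT. The members furthest from 0 were Postn (-0.61), which encodes the matrix protein periostin, Dkk3 (0.50), a Dickkopf family gene, the Wnt effector gene Tcf7l2 (0.50) and the hedgehog target Gli1 (0.49). Given after their values were seen, the surface marker Cd34 had 8.69 FPKM in L19M and 9.14 FPKM in WT, a ratio of 0.950 (0.843 to 1.07), and the keratin Krt15, which newborn basal epidermis also makes, 851 FPKM in L19M and 856 FPKM in WT. Krt15 alone thus supplied most of the summed level of the bulge list in both libraries.

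All 8 markers of the upper follicle and duct were measured. In L19M 2 of them were lower by 2-fold or more, beside 1.71% of measured genes, and 4 by 1.5-fold or more, beside 4.07%. None was higher by as much, and the median was -0.44. Their summed level was 1322 FPKM in L19M and 1815 FPKM in WT. Krt79, a keratin of the duct and infundibulum, had 247 FPKM in L19M and 517 FPKM in WT, a ratio of 0.478 (0.465 to 0.491). Cst6, a cysteine protease inhibitor, had 73.5 FPKM in L19M and 142 FPKM in WT, and Klk10, a kallikrein, 25.6 FPKM in L19M and 42.3 FPKM in WT. Defb6, a beta-defensin from a family of similar genes, had 2.99 FPKM in L19M and 28.5 FPKM in WT, from 6 fragments in L19M and 48 in WT. The other markers of the list lay closer to 0, with log2 ratios of -0.17 for Krt17, -0.05 for Prdm1, 0.002 for Plet1 and 0.25 for Ly6a.

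**Figure D4:**
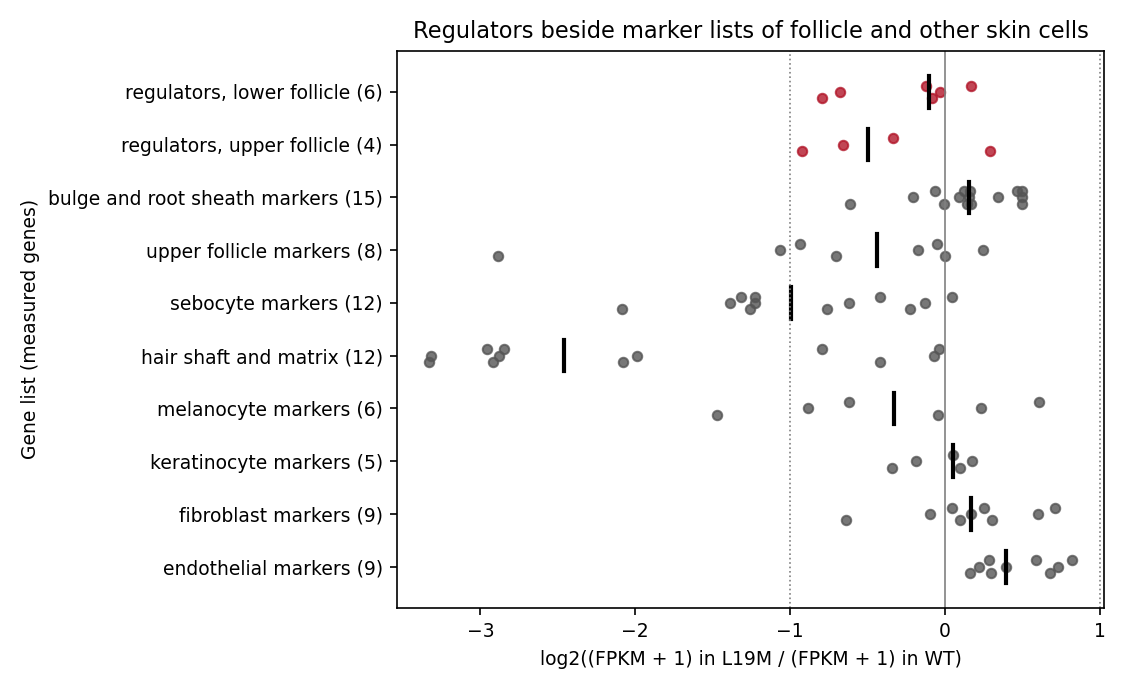
Log2 ratio of L19M over WT, on the log2(FPKM + 1) scale, of each measured gene in the regulator sets (red) and in marker lists of follicle and other skin cells (grey), with the number measured in brackets, the median as a black bar and dotted lines at 2-fold. The medians of the upper follicle regulators (-0.50) and upper follicle markers (-0.44) lie below those of the lower follicle regulators (-0.10) and bulge markers (0.16), and sebocyte and hair shaft genes lie lowest. The upper follicle regulators are Lgr6 (0.29), Lrig1 (-0.33), Gata6 (-0.66) and Foxe1 (-0.92), so their median depends on placing Foxe1 there.

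Many markers of sebaceous and hair-forming cells were also lower in L19M. The 12 sebocyte markers were all measured and none was at 0. On the log2(FPKM + 1) scale 6 were lower by 2-fold or more, beside 1.71% of measured genes. Of the 12, 11 were below 0, beside 5827 of 11841 measured genes. The median of the sebocyte markers was -0.99 and their summed level 341 FPKM in L19M and 460 FPKM in WT. The furthest apart were the lipid enzyme genes Elovl3 (2.50 FPKM in L19M, 13.8 FPKM in WT), Scd1 (13.2 FPKM in L19M, 36.1 FPKM in WT) and Awat1 (4.88 FPKM in L19M, 13.7 FPKM in WT), and Cidea (5.57 FPKM in L19M, 14.8 FPKM in WT), a gene of lipid droplets. Of 12 hair shaft and matrix genes 8 were at least 2-fold lower on the same scale, beside the same 1.71%. They were led by the shaft keratins Krt33a (-3.33), Krt31 (-3.32), Krt34 (-2.96) and Krt81 (-2.92). The sum over the 12 genes was 58.5 FPKM in L19M and 216 FPKM in WT. The part of sebaceous, duct and hair-forming cells in the lower Gata6, Foxe1, Tbx1 and Foxc1 values was not tested.

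Foxc1, Tbx1, Gata6 and Nfatc1 are also expressed by cells of the dermis or of vessels, whose markers mostly lay above 0. Of all 11841 measured genes 6014 lay above 0. Of 10 endothelial markers 9 were measured, all above 0 with a median of 0.40, and none had 0 FPKM. Their sum was 33.7 FPKM in L19M and 22.2 FPKM in WT. Plvap (0.82), Lyve1 (0.73), Esam (0.68) and Emcn (0.59) were furthest from 0. Without a pseudocount their ratios were 2.18 (1.56 to 3.11), 2.04 (1.51 to 2.79), 2.05 (1.34 to 3.20) and 1.77 (1.17 to 2.74). At 1.5-fold on the log2(FPKM + 1) scale 4 endothelial markers were higher, beside 1.99% of measured genes, and none lower, beside 4.07%. Of 9 measured fibroblast markers 7 were above 0, with a median of 0.17 and a sum of 1222 FPKM in L19M and 1010 FPKM in WT. Vim (0.71), Lum (-0.64), Pdgfrb (0.60) and Dcn (0.30) were furthest from 0, with ratios without a pseudocount of 1.64, 0.633, 2.03 and 1.24. The 6 melanocyte markers had a median of -0.33 and a sum of 118 FPKM in L19M and 181 FPKM in WT, with Tyrp1 (-1.47), Pmel (-0.89), Dct (-0.62) and Mlana (-0.04) below 0 and Sox10 (0.61) and Mitf (0.23) above. The 5 measured keratinocyte markers, with Krt5 (0.05), Krt14 (0.18), Krt1 (0.10), Krt10 (-0.19) and Lor (-0.34), had a median of 0.05. The part of these cell types in the members' values was not tested.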

How the data were processed

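The authors deposited values per gene under a raw data heading with no unit, read here as FPKM because low values stepped as whole fragments over transcript length. They also deposited log2 values after quantile normalization, per the file headers and information sheet, which lay within 0.0476 of log2(FPKM + 1). The submitters' processing notes list Cufflinks, edgeR and R 3.5.1 with no role. No source names the aligner or how strand was used in counting, although the library kit was directional. The information sheet names mm10 and the notes GRCm39. Rows began within 5000 bases of the RefSeq GRCm38 gene start for 95.5% of 21982 shared symbols, and coordinates are therefore given as mm10. Transcript length is the width column the authors deposited.

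The log2 ratio was log2((FPKM in L19M + 1)/(FPKM in WT + 1)), with a floor of 1 FPKM in the mean. Fragment numbers came from fitting low FPKM values (up to 20 fragments, transcripts of at least 1000 bases) as whole fragments, with 210 bases taken off each length in L19M and 205 in WT. Of these values 83.5% in L19M and 84.0% in WT came within 0.1 of a whole number. Intervals were exact (Poisson for levels, Clopper-Pearson for ratios, 95%). Steps were run on simulated counts drawn with the same formula of length and depth. That run checks the code, not whether the formula holds for these libraries, and it includes no spread between animals. Python 3.11.15 with scipy 1.17.1 was used. Members and the 18 gene lists (153 entries, 1 not in the table and not analysed here) were chosen with earlier results of these data known. Named were all members, Foxn1, all measured genes of lists of up to 8, and the 4 measured genes furthest from 0 in longer lists. Cd34, Krt15, Tbx2, Tbx3 and Tbx18 were added after their values were seen.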

Additional observations from a re-analysis of the deposited data

How the results depend on the processing

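No paired analysis was possible because each genotype has 1 library, and for the same reason no library could be left out. Members at least 2-fold lower numbered 0 with a pseudocount of 1 FPKM, 3 with 0.1 or 0.01 FPKM (Foxe1, Gata6 and Tbx1), and 4 at a 1.5-fold rule. The count stayed at 0 with the authors' quantile-normalized values, with FPKM rescaled to TPM and with median-centred FPKM. The quantile-normalized values lie close to log2(FPKM + 1), and the TPM and median-centred settings kept the pseudocount of 1. The 0 under them therefore does not test the pseudocount. Without a pseudocount the ratios of Foxe1 (0.302), Gata6 (0.448) and Tbx1 (0.488) were below 0.5. A floor of 0.5 FPKM or none could not change which members were counted, since every member already passed the floor of 1 FPKM. No member was 2-fold higher under any of these settings. Over all measured genes, 203 were lower and 63 higher, against 297 and 120 with a pseudocount of 0.1, 311 and 134 with 0.01, and 482 and 236 at 1.5-fold. At 1.5-fold the bulge list had 1 lower gene and the upper follicle list 4. The median of the members ran from -0.29 to -0.19 over the settings. Nfatc1 changed sign (-0.04 to 0.02), and the other 9 members kept theirs. Foxe1 ran from -1.71 to -0.92 and Gata6 from -1.15 to -0.65. Depth limits Foxe1 most, at 11 fragments in L19M and 27 in WT.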
